A study of Homo sapiens with 6 samples.

Results

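The genes described here are neighbours on the long arm of human chromosome 3, from CLDN11 in band 3q26 to RTP1 in band 3q27. The list of 57 symbols was proposed after a scan of these same arrays had marked a run of neighbouring genes there, so the members were chosen by their measured differences between the groups below. Which of the 3 comparisons was used is not recorded, and all 3 are treated as used. Values and calls of members from the fit over all rows are therefore descriptions and no evidence for the choice. Of the 57 listed genes, 53 had a row under their own symbol, among 18417 genes with such a row. The other 4 are not analysed here. Between CLDN11 and RTP1 lay another 36 measured genes that the list leaves out, which makes 89 genes in the stretch.

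RNA came from MDA-MB-231, a long-used breast cancer cell line without hormone receptors or HER2, and was measured on Affymetrix Human Gene 1.0 ST arrays, which read each transcript with many short probes. The 6 arrays hold 3 groups of 2 clones, and all of them carried a short hairpin RNA (shRNA). The hairpin was a control in the first group, and shRNA 162 or shRNA 159 against TIP-1, a small PDZ-domain protein encoded by TAX1BP3, in the others. Each array is 1 independently derived clone with no technical repeat, grown in RPMI medium with serum, reseeded and kept overnight, so the error is the spread between clones and a clone's own history cannot be told apart from its hairpin.

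The targeted gene checks the labels. The TAX1BP3 row stood at 11.65 and 11.56 (log2 signal) in the control clones, 9.85 and 10.01 with shRNA 162, and 10.40 and 10.40 with shRNA 159, which left 31.3% and 43.4% of the control level. The row also reads a readthrough transcript with P2RX5. The line's own markers VIM, CD44, EGFR, ANXA1 and MSN lay between 10.21 and 13.41 on all arrays, while ESR1, PGR, ERBB2, CDH1 and EPCAM lay between 5.83 and 8.19. The 5 measured markers of blood and endothelial cells (CD14, CD3E, PECAM1, PTPRC and VWF) lay between 4.84 and 7.20, below the array medians of 7.37 to 7.44. ERBB2 (7.80 to 8.19) lay above those medians on all arrays, and EPCAM ranged from 7.01 to 8.02.

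The end of chromosome 3q is a stretch known for extra copies in squamous cancers of the lung, cervix and head and neck. Several of its genes have been studied as drivers there, among them ECT2, which acts in cell division, SOX2, a transcription factor of squamous and stem cells, and DCUN1D1, which helps to attach NEDD8 to cullins. The genes have no common function: the stretch also encodes translation factors, subunits of the proteasome and RNA polymerase II, and mitochondrial proteins. The arrays measure RNA and not DNA copies.

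Promoters of 4 members are shown first: the 3 members with the lowest signal with shRNA 162 relative to control, and RPL22L1, the first member along the chromosome that was not lower. Each run is 250 bases before to 50 after a RefSeq transcript start (GRCh38.p14), 5′ to 3′ on the gene's strand. Capitals mark matches on either strand to 5 motifs. The Sp1-type motif was searched as GGGCGG. The ETS-type motif was searched as CCGGAAG. The YY1-type motif was AAGATGGCG, the TATA box was TATAAA, and an NRF1-type palindrome was the last. The windows lie at chr3:170418618-170418917 on the + strand for CLDN11 (the more upstream of its 2 windows), chr3:172711018-172711317 on the - strand for NCEH1, chr3:179652790-179653089 on the + strand for USP13 and chr3:170870146-170870445 on the - strand for RPL22L1.
CLDN11: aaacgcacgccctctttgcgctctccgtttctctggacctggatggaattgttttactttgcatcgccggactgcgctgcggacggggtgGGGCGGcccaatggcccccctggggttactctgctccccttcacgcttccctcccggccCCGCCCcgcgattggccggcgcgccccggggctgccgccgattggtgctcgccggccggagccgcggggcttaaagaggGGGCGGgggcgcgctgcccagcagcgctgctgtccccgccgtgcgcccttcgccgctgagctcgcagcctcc
NCEH1: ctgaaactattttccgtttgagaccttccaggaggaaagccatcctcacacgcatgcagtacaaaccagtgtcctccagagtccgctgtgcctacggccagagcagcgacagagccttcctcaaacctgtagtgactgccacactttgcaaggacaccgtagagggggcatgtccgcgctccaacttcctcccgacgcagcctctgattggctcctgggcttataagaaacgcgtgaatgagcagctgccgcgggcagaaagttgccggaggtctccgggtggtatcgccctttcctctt
USP13: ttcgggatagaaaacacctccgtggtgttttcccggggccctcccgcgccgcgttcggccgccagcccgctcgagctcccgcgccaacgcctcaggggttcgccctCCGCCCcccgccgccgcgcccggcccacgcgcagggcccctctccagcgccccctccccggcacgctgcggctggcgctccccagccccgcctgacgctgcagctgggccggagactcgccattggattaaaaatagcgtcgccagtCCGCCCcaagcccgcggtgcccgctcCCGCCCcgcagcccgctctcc
RPL22L1: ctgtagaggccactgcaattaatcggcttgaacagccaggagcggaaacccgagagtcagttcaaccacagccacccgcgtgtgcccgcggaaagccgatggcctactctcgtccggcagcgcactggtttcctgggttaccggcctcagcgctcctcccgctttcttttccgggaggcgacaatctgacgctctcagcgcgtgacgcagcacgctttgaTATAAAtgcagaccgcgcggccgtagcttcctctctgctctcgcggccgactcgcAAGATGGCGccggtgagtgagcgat
The CLDN11 and USP13 windows hold 3 GGGCGG matches each, with 72.0% and 75.7% G and C. The NCEH1 window holds none of the 5 motifs at 57.0% G and C, and the RPL22L1 window holds 1 TATAAA and 1 AAGATGGCG.

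RefSeq windows were found for 48 of the 53 measured members, 72 windows in all. GGGCGG occurred in 62.5% of them and in 45% of the 35116 windows of all genes in the table. Those windows belong to 27305 genes, more than the 18417 genes with a row. A difference in shares can therefore not be ascribed to membership. The other shares were 11.1% against 10.3% for CCGGAAG, 1.39% against 1.24% for the NRF1-type motif, 6.94% against 1.75% for AAGATGGCG (5 member windows) and 13.9% against 11.5% for TATAAA. No match overlapped a match of another motif in the member windows. The median window held 22.5 CG dinucleotides in members and 14.0 over all windows. It held 23.0 in members above the median signal level and 21.0 in the others. These are matches of letters and do not show binding.

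With shRNA 162 the members were lower than in the control clones almost throughout the stretch. The median difference of the 53 members was -0.44 on the log2 scale, with quartiles of -0.62 and -0.22, against a median of 0.02 over all 21214 rows tested. In all 49 members lay below 0 and 4 above, and in 45 members both shRNA 162 clones lay below both control clones, which was so for 23.3% of all rows. A row is said to pass where its limma adjusted p was under 0.05. At an unadjusted limma p under 0.05, 39 members were lower and 0 higher, against 1993 and 3329 of the 21214 rows. Of the 53 members 31 passed as lower, against 3.64% of all rows, and 0 passed as higher, against 5.88% of all rows. Because the members were chosen from these arrays, nothing is read from this count or from the counts of members in the other comparisons. Leaving out control clone 1 gave 17, control clone 2 gave 18, shRNA 162 clone 1 gave 20 and shRNA 162 clone 2 gave 18, while the median difference kept between -0.49 and -0.40. In RNA from whole cultures, fewer cells of a kind and less RNA per cell cannot be told apart.

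With shRNA 159 the same genes lay around the control level. The median difference of the 53 members was 0.01, with 25 below 0 and 28 above, against -0.01 over all rows. TNIK was the 1 member that passed as lower (0.839% of all rows passed as lower) and 0 passed as higher (1.69% of all rows). At an unadjusted limma p under 0.05 the counts were 4 lower and 6 higher, against 1455 and 1540 of the 21214 rows. Both shRNA 159 clones lay below both control clones in 11 members (21.7% of all rows) and above them in 10 (20.7% of all rows). The single call was lost without any 1 of the 6 arrays. The direct comparison of the hairpins, shRNA 159 minus shRNA 162, had a median of 0.50 over the members against -0.04 over all rows. In it 32 members passed as higher with shRNA 159 (4.02% of all rows) and 0 as lower (4.64% of all rows). At an unadjusted limma p under 0.05, 0 members were lower, against 3159 of the 21214 rows. Both shRNA 159 clones lay above both shRNA 162 clones in 41 members, which was so for 19.3% of all rows. In 28 members the fall with shRNA 162 and the difference between the hairpins both passed. The share of all rows that passed both was not computed. It can be at most the 3.64% that passed as lower with shRNA 162. The shRNA 162 clones enter both comparisons, so these counts are not independent of each other. Without shRNA 162 clone 1 the count of 32 was 21.

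**Figure D1:**
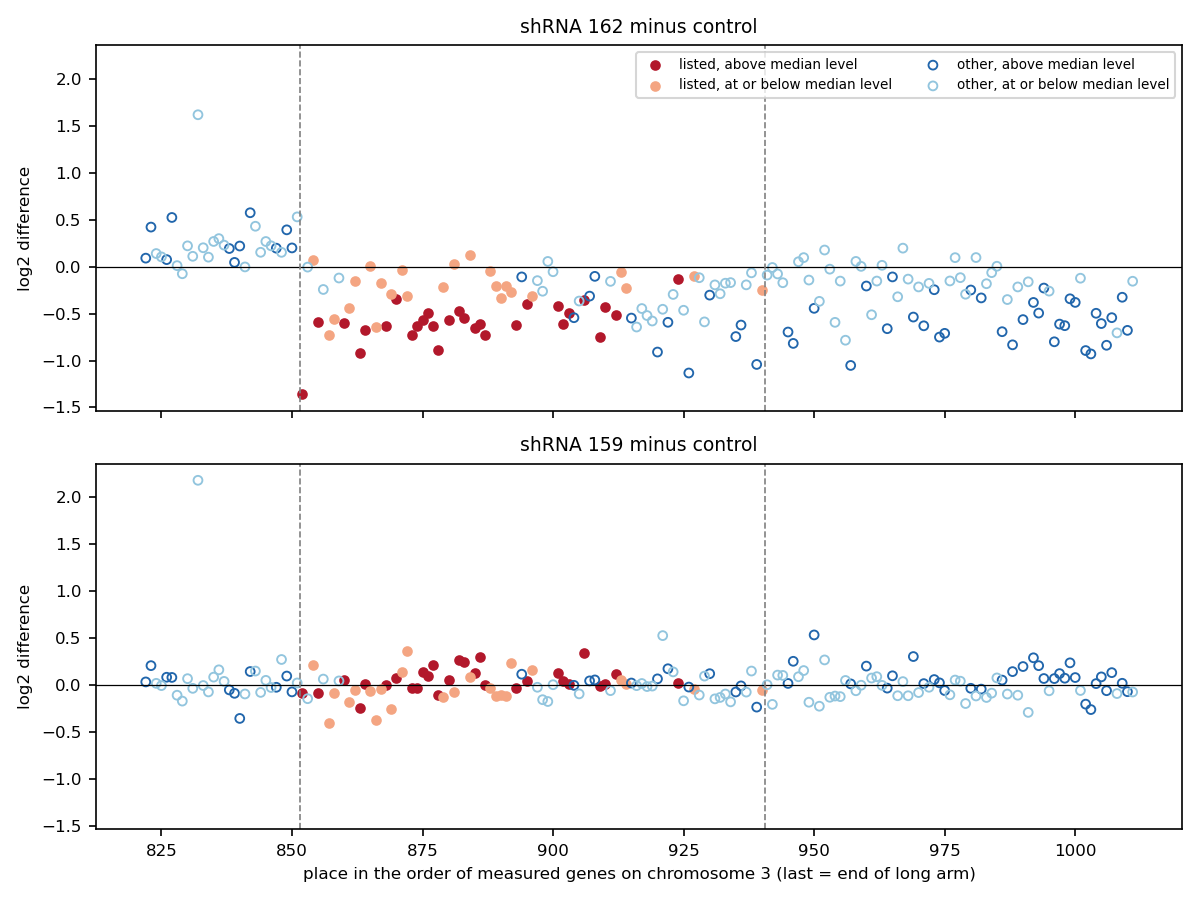
Differences from control (log2, vertical axes) of measured genes in their order along chromosome 3 (horizontal axis), from 30 genes before CLDN11 to the end of the long arm, with shRNA 162 above and shRNA 159 below. Filled points are listed genes, open points other genes, dark colours genes above the median signal level, and dashed lines the ends of the list. With shRNA 162 the points step from a median of 0.20 before the first line to -0.44 among the listed genes and -0.29 past the second line, and over genes above the median level the same medians are 0.20, -0.60 and -0.61. With shRNA 159 the medians are 0.02, 0.01 and, over all genes past the second line, 0.01. The high open point before the first line is BCHE (1.62 and 2.18).

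The lower values began near CLDN11. SKIL, which encodes a repressor of SMAD signalling and is the last measured gene before the list, stood at 7.54 and 7.53 in the control clones, 7.99 and 8.14 with shRNA 162 and 7.61 and 7.51 with shRNA 159. SKIL passed as higher with shRNA 162, at 0.53 (SE 0.08). CLDN11, the next gene, encodes a claudin of tight junctions in myelin and testis, and stood at 9.47 and 9.55 in the control clones, 8.16 and 8.14 with shRNA 162 and 9.40 and 9.45 with shRNA 159. Its difference with shRNA 162 was -1.36 (SE 0.08), the largest among the members, so the sign turned from SKIL to CLDN11. The following genes, SLC7A14 (-0.00) and RPL22L1 (0.08), with mean signals of 6.62 and 7.82, were not lower. EIF5A2 after them fell by 0.59. The shRNA 162 clones lay above all other clones for SKIL and below them for CLDN11.

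The genes outside the list differ by side. Of all 21214 rows tested, 11746 lay above 0 with shRNA 162 and 9468 below. As higher passed 5.88% of all rows, and as lower 3.64%. Of the 30 measured genes before CLDN11, 28 lay above 0 with shRNA 162 (median 0.20). By limma 5 passed as higher, MYNN (0.58) and SKIL among them, and 0 as lower. At an unadjusted limma p under 0.05, 14 were higher and 0 lower, against 3329 and 1993 of the 21214 rows. PRKCI, an atypical protein kinase C, and PHC3, a Polycomb protein, next to SKIL, differed by 0.20 and 0.39 and did not pass. Among the 36 unlisted genes between CLDN11 and RTP1, 35 lay below 0 (median -0.30) and 15 passed as lower, a count that was 9, 8 or 8 without control clone 1, control clone 2 or shRNA 162 clone 1. The largest of these differences were in ETV5, a PEA3-type transcription factor (-1.13), RPL39L, a ribosomal protein gene with related copies elsewhere (-1.04), TMEM41A (-0.91) and EIF4A2, an RNA helicase of translation initiation (-0.74). Past RTP1 the lower values did not end: of the 71 measured genes from there to the end of the chromosome, 61 lay below 0 (median -0.29), 31 passed as lower and 0 as higher (41 and 1 at an unadjusted limma p under 0.05). Without control clone 1 or 2 the first of these counts was 16 or 20. CCDC50 (-1.05), DLG1, a scaffold of cell polarity (-0.93), LPP, a focal adhesion protein (-0.82), and PAK2, a kinase downstream of Rac and Cdc42 (-0.61), were among them, chosen after their values were seen. LMLN, next to last in the order, differed by -0.68 and passed. The list therefore holds the first part of a longer stretch of lower genes. The other 821 measured genes of chromosome 3, all before the 30 next to CLDN11, had a median of 0.05, and 23 of them passed as lower and 58 as higher.

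With shRNA 159 the medians were 0.02 for the 30 genes before CLDN11, -0.01 for the 36 unlisted genes and 0.01 for the 71 genes past RTP1. In each of these groups 0 genes passed as lower by limma. The counts lower at an unadjusted limma p under 0.05 were 1, 1 and 5, against 1455 of the 21214 rows. Of all rows 0.839% passed as lower and 1.69% as higher. In these groups BCHE, a dim cholinesterase gene before CLDN11 (2.18), and P3H2, a prolyl hydroxylase gene past RTP1 (0.53), passed as higher. P3H2 also fell by 0.44 with shRNA 162. LIPH, a phospholipase that the list leaves out, had the largest difference among the unlisted genes (0.53) and did not pass. In the direct comparison 17 of the 36 unlisted genes and 32 of the 71 genes past RTP1 passed as higher with shRNA 159, against 4.02% of all rows. The first of these counts was 10 without shRNA 162 clone 1.

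The shift was seen in both shRNA 162 clones. The member median, relative to the mean of the control clones, was -0.49 in shRNA 162 clone 1 and -0.40 in clone 2, and 0.05 and -0.02 in the shRNA 159 clones. In shRNA 162 clone 1, 50 members lay below the control mean, and in clone 2, 47 did. The difference of clone 1 minus clone 2 had a median over members of -0.01 in the control group, -0.06 with shRNA 162 and 0.08 with shRNA 159. Single members differed more between clones, from -0.37 to 0.60 with shRNA 162.

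**Figure D2:**
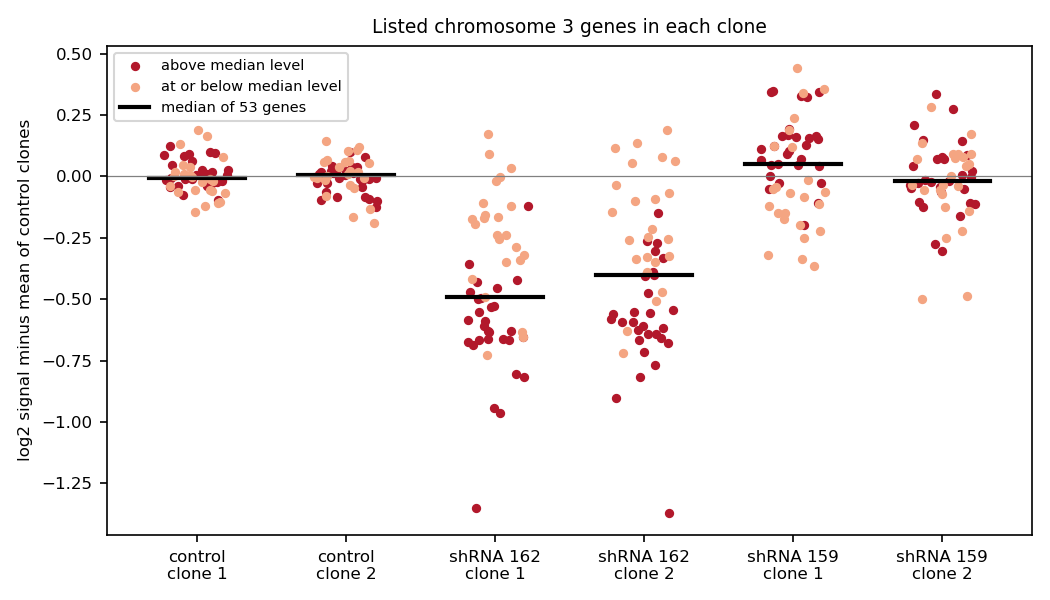
Log2 signal of each of the 53 members minus the mean of the control clones (vertical axis) in each of the 6 clones (horizontal axis), with dark points for members above the median level and bars for the median of all members. The shRNA 162 clones sit at medians of -0.49 and -0.40 and the shRNA 159 clones at 0.05 and -0.02. Control values mirror each other because they are taken from their own mean.

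The differences were larger in members with brighter signals. Of the members, 29 had a mean signal above 7.89, the average of the array medians over the tested rows. All 29 lay below 0 with shRNA 162, with a median of -0.60 and quartiles of -0.65 and -0.49, which corresponds to 65.9% of the control level. Of these 27 passed, against 5.56% of all rows above that level. The 24 dimmer members had a median of -0.21, and 4 of them passed, against 1.72% of all rows at or below it. Signals this low were not shown to be above background, so a small difference there does not show that a transcript was unchanged. Array signals also compress fold changes, and a percent of the control level is a ratio of signals.

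**Figure D3:**
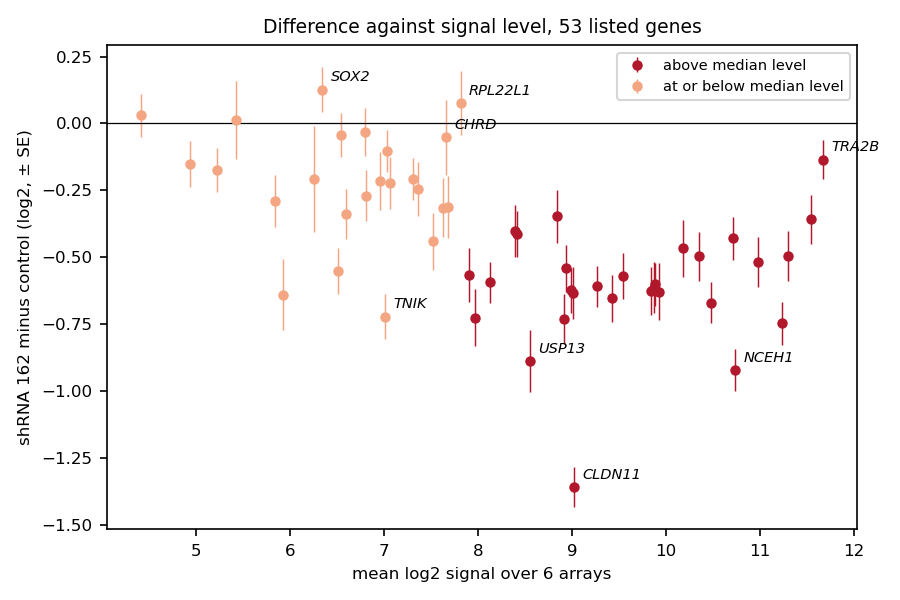
Difference of shRNA 162 minus control (log2, vertical axis, bars ± SE) against the mean log2 signal over the 6 arrays (horizontal axis) for the 53 members. Members above the median level centre on -0.60, with CLDN11 at -1.36 and TRA2B at -0.13 at the edges, and dim members centre on -0.21.

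Of the mitochondrial and metabolic genes, 6 of 6 lay below 0 with shRNA 162 (median -0.68), and all 6 passed as lower (3.64% of all rows). All 6 had a signal above the median level, where 27 of 29 members passed, against 4 of 24 at or below it. Of all rows, 5.56% above that level and 1.72% of the others passed as lower. The counts of passing members by role, here and below, were not separated from signal level and are no result about a role. NCEH1, a hydrolase of ether lipids and cholesterol esters, read 11.15 and 11.11 in the control clones, 10.19 and 10.23 with shRNA 162 and 10.93 and 10.83 with shRNA 159. It fell by 0.92 (SE 0.08) with shRNA 162, and its difference of -0.25 with shRNA 159 did not pass although those clones also lay below the controls. The order of the groups was thus control, shRNA 159 and shRNA 162, with no overlap. MFN1, a mitofusin that joins outer mitochondrial membranes, read 9.27 and 9.07, then 8.37 and 8.51, then 9.14 and 9.14 in the same order of groups, and fell by 0.73 (SE 0.09). MCCC1, a subunit of the carboxylase of leucine breakdown, read 8.22 and 8.20 in the control clones, 7.52 and 7.44 with shRNA 162 and 8.37 and 8.05 with shRNA 159, a difference of -0.73 (SE 0.11).

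For MFN1 and MCCC1 only the shRNA 162 clones stood apart. NDUFB5, an accessory subunit of respiratory complex I, read 10.15 and 9.99 in the control clones, 9.41 and 9.48 with shRNA 162 and 10.42 and 10.14 with shRNA 159. Its hairpin difference of 0.84 (SE 0.11) exceeded its fall of 0.63 from control. DNAJC19, part of the motor that imports proteins into the matrix, read 9.02 and 9.05, then 8.50 and 8.48, then 9.38 and 9.18, in the same order of groups. It was read by 2 rows, which differed by -0.54 and -0.42 with shRNA 162, and both passed. PARL, a rhomboid protease of the inner mitochondrial membrane, had the smallest fall of the group at 0.40.

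All 6 genes of protein turnover and modification lay below 0 with shRNA 162, and 3 passed as lower (3.64% of all rows). USP13, a deubiquitinase, read 8.87 and 8.89 in the control clones, 7.92 and 8.06 with shRNA 162 and 8.95 and 8.60 with shRNA 159, and fell by 0.89 (SE 0.12). PSMD2, a base subunit of the proteasome cap, read 11.46 and 11.51, then 10.67 and 10.81, then 11.49 and 11.46, and fell by 0.75 (SE 0.08). For both genes the shRNA 162 clones were the lowest, and the shRNA 159 clones overlapped the control clones.

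ALG3, a mannosyltransferase of N-glycan assembly, differed from control in opposite directions with the hairpins, of which the fall passed. It read 11.62 and 11.49 in the control clones, 11.10 and 11.29 with shRNA 162 and 11.90 and 11.89 with shRNA 159. It fell by 0.36 with shRNA 162, and with shRNA 159 it differed by 0.34, which did not pass. The dim members B3GNT5, a lactosylceramide glycosyltransferase, and KLHL24 and KLHL6, adaptors of cullin ligases, differed by -0.34, -0.27 and -0.21 with shRNA 162 and did not pass.

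Among 13 signalling and cancer-linked genes 12 lay below 0 with shRNA 162 (median -0.55), and 8 passed as lower (3.64% of all rows). ECT2 read 10.75 and 10.66 in the control clones, 10.03 and 10.04 with shRNA 162 and 10.75 and 10.68 with shRNA 159, and fell by 0.67 (SE 0.08). DCUN1D1 read 10.10 and 9.85, then 9.39 and 9.33, then 10.30 and 10.25, a fall of 0.61 from control and a hairpin difference of 0.91 (SE 0.10), second to CLDN11 among the members. FXR1, an RNA-binding protein related to FMR1, read 10.35 and 10.16, then 9.90 and 9.67, then 10.58 and 10.46, and fell by 0.47 (SE 0.11). For DCUN1D1 and FXR1 the shRNA 159 clones lay above both controls by a difference that did not pass (0.30 and 0.27).

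TBL1XR1, a subunit of the NCoR corepressor (-0.63), GNB4, a G protein beta subunit (-0.63), DVL3, a Dishevelled protein of Wnt signalling (-0.61), and PLD1, a phospholipase D (-0.55), also fell. TNIK, a kinase of the Wnt and JNK pathways, was lower with both hairpins. It read 7.36 and 7.41 in the control clones, 6.66 and 6.67 with shRNA 162 and 7.07 and 6.90 with shRNA 159, a fall of 0.72 (SE 0.08) with the first hairpin and 0.40 with the second. The groups did not overlap, and the call with shRNA 159 was lost without any single array, with quantile normalization and in 3 other alternatives. ZMAT3, an RNA-binding p53 target (-0.35), EPHB3, an ephrin receptor (-0.22), TNFSF10, the death ligand TRAIL (-0.15), and DGKG, a diacylglycerol kinase (-0.10), did not pass. SOX2 was dim, at 6.21 and 6.33 in the control clones, 6.45 and 6.35 with shRNA 162 and 6.40 and 6.31 with shRNA 159, and no difference passed.

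**Figure D4:**
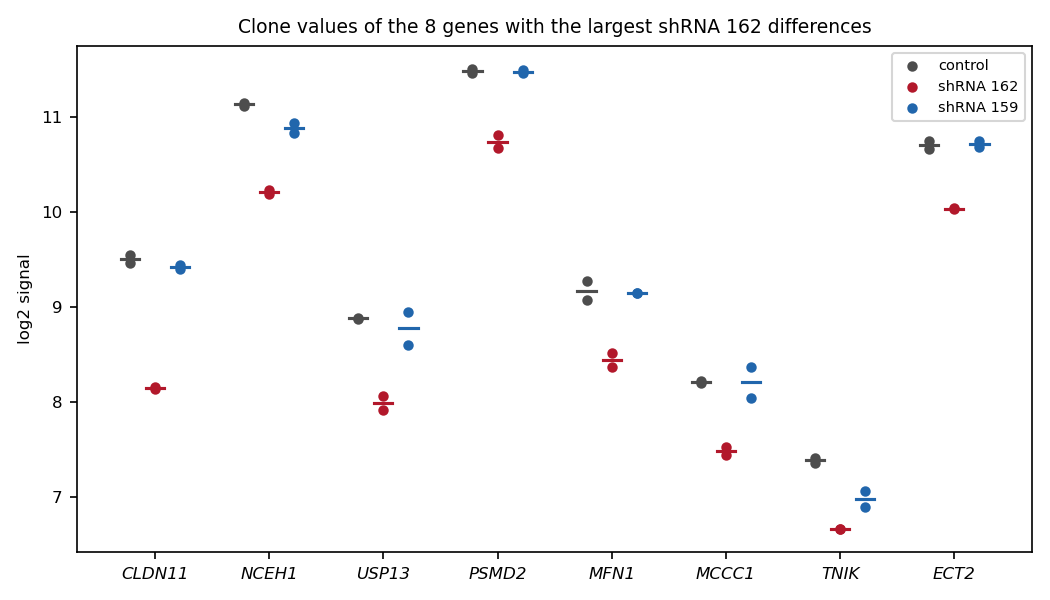
Log2 signal (vertical axis) in each clone of the 8 members with the largest absolute differences of shRNA 162 minus control (horizontal axis). Points are clones and bars are group means of 2. The shRNA 162 clones lie below both control clones in all 8, from CLDN11 (-1.36) to ECT2 (-0.67), and the shRNA 159 clones do so in TNIK (-0.40), NCEH1 (-0.25) and CLDN11 (-0.09).

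Of 5 genes of translation 4 lay below 0 with shRNA 162, and the same 4 passed as lower (3.64% of all rows). EIF5A2, a second form of the hypusine-bearing factor eIF5A, fell by 0.59, MRPL47 of the large mitochondrial ribosomal subunit fell by 0.50, EIF4G1, the scaffold of the cap-binding complex, fell by 0.43, and EIF2B5, the catalytic subunit of the exchange factor eIF2B, fell by 0.41. RPL22L1, a ribosomal protein paralogue that lies between the lower genes CLDN11 and EIF5A2, read 7.85 and 7.59 in the control clones, 7.75 and 7.84 with shRNA 162 and 8.07 and 7.80 with shRNA 159. Its groups overlapped, at a difference of 0.08 (SE 0.12) with shRNA 162. Its mean signal of 7.82 was just below the median level of 7.89. SLC7A14 next to it (-0.00) had a mean of 6.62.

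All 6 genes of the nucleus and chromatin lay below 0 with shRNA 162, and 4 passed as lower (3.64% of all rows). These 4 were YEATS2 of the ATAC acetyltransferase complex (-0.62), ACTL6A, an actin-like subunit of the BAF remodeller (-0.57), TTC14 (-0.57) and POLR2H, a subunit shared by the RNA polymerases (-0.52). ZNF639, a zinc finger protein, read 7.82 and 7.50 in the control clones, 7.37 and 7.32 with shRNA 162 and 8.10 and 7.94 with shRNA 159. Neither of its differences from control passed (-0.31 and 0.36), while the difference between the hairpins did (0.67, SE 0.12). TRA2B, a splicing regulator and the brightest member, read 11.71 and 11.71 in the control clones, 11.59 and 11.56 with shRNA 162 and 11.76 and 11.71 with shRNA 159. At -0.13 (SE 0.07) it did not pass, although its mean of 11.67 was far above the median level. Of the dim genes next to it, IGF2BP2-AS1 (-0.29) did not pass and NMRAL2P (-0.46) did. The genes beyond these, IGF2BP2 (-0.59) and ETV5, fell. Among the 12 unlisted genes above the median level, 3 also did not pass.

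Membrane traffic and transport genes were split by level. All 8 lay below 0 with shRNA 162, and 3 passed as lower (3.64% of all rows). ATP11B, a phospholipid flippase, read 9.69 and 9.51 in the control clones, 8.93 and 8.96 with shRNA 162 and 9.77 and 9.68 with shRNA 159, with a fall of 0.65 (SE 0.09) and a hairpin difference of 0.78. FNDC3B fell by 0.60 and AP2M1, the medium chain of the AP-2 clathrin adaptor, fell by 0.49. ABCC5, an efflux pump of cyclic nucleotides, did not pass against control (-0.32) and passed between the hairpins (0.47). KCNMB2, a potassium channel subunit, was dim in every clone, from 5.66 to 6.08, and lay at -0.29 with shRNA 162 and -0.25 with shRNA 159, neither of which passed. PEX5L (-0.22), LAMP3 (-0.04) and KCNMB3 (-0.03) did not pass, and the other 3 rows of KCNMB3 lay between 0.06 and 0.11.

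Of 9 genes whose use is mostly restricted to other tissues, 7 lay below 0 with shRNA 162, and 3 passed as lower (3.64% of all rows). Besides CLDN11 these were NLGN1, a synaptic adhesion protein, and GHSR, the ghrelin receptor (-0.44). NLGN1 read 6.45 and 6.07 in the control clones, 5.61 and 5.64 with shRNA 162 and 6.01 and 5.76 with shRNA 159. It fell by 0.64 (SE 0.13) with shRNA 162, and at -0.37 it did not pass with shRNA 159. RTP1, NAALADL2, MCF2L2 and CHRD, an inhibitor of bone morphogenetic proteins, lay between -0.25 and -0.05, and SPATA16 and CCDC39, an assembly factor of motile cilia, at 0.01 and 0.03; none of these 6 passed.

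Of the members, 13 encode subunits of complexes or members of families whose other genes lie on other chromosomes or elsewhere on chromosome 3. Of 76 such partner genes 69 were measured, and 67 of these lay outside the stretch from CLDN11 to the chromosome's end. Their median difference with shRNA 162 was 0.07, with 22 below 0 and 45 above. By limma 5 of the 67 passed as higher (5.88% of all rows), SMARCA4 (0.39), SMARCC1 (0.38) and EIF2B3 (0.31) among them, and 1 as lower (3.64% of all rows), PSMC1 (-0.32). These shares are near those of all rows. The 13 other proteasome genes had a median of 0.06 beside -0.75 for PSMD2, the 11 other RNA polymerase II genes 0.06 beside -0.52 for POLR2H, and the 10 other NDUFB genes 0.08 beside -0.63 for NDUFB5. NDUFB9, on chromosome 8, rose by 0.91 and was the largest difference among the partners. The 4 other AP-2 genes had a median of -0.12, and none passed. The 2 partners inside the stretch, EIF4A2 and the inner membrane fusion protein OPA1 (-0.66), fell. The difference between members and partners was not tested, since the members were chosen from these values.

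**Figure D5:**
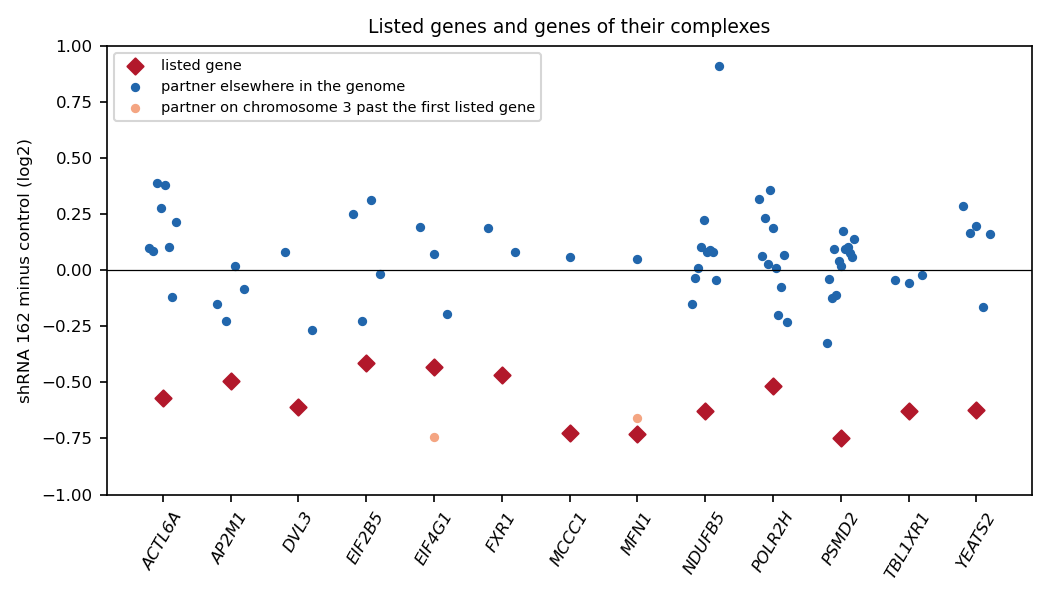
Difference of shRNA 162 minus control (log2, vertical axis) for 13 members (diamonds) and for measured genes of the same complexes or families (points), by member (horizontal axis). The diamonds lie between -0.75 and -0.41, while points for partners elsewhere in the genome centre on 0.07 and those for EIF4A2 and OPA1, which lie past CLDN11 on chromosome 3, are at -0.74 and -0.66.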

How the data were processed

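Per the labels, the authors made the deposited values, read here as log2 signals from their range of 2.29 to 14.65, with the Exon Array Computational Tool of Affymetrix. Its settings were not given in the sources used here. Of 33297 rows, 21214 carried a gene symbol in the platform's probe table (19460 1 symbol, 1754 several) and were tested without further scaling. Arrays give no counts, and their number limits the precision. limma 3.58.1 (R 4.3.3) fitted a 3-group model to each row (3 residual and 5.31 prior degrees of freedom), two-sided, with Benjamini-Hochberg adjustment over all tested rows. A gene was represented by its brightest row with 1 symbol. Genes were ordered by RefSeq starts (GRCh38.p14). The members and lists were chosen with earlier results of these data known. The 8 members with the largest absolute difference per comparison were picked by that size, and the other measured members follow by role. Unlisted genes named between CLDN11 and RTP1 are from the 4 largest per comparison, besides neighbours of RPL22L1 and TRA2B. The fit was run on simulated rows with planted changes and noise independent between rows. This does not test neighbouring genes that shift together. Alternatives were quantile normalization, brighter rows only, all rows, a variance trend, a replicate block, only the arrays compared, every row of a member and leaving out each array. The genes past RTP1 were followed to the chromosome's end after the data were seen. Plots used matplotlib 3.10.9 (Python 3.11.15).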

Additional observations from a re-analysis of the deposited data

How the results depend on the processing

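With shRNA 162 minus control, 31 members passed as lower, and the count was 17 when array rows without a symbol were added and 17 to 32 without a single array. With shRNA 159 minus control the count of 1 was 0 with quantile normalization, all rows, only the 4 arrays compared or the replicate block, and 0 without any single array, while a variance trend gave 2 lower and 2 higher. With shRNA 159 minus shRNA 162, 32 members passed as higher, 18 with all rows and 21 to 31 without a single array. The cause of the changes with all rows and a variance trend was not tested. Counts over all rows in these fits are not given here. A loss of calls particular to the members can therefore not be told from a loss over all rows. The member medians moved by less than the spread between clones (0.07) in every alternative run. Under quantile normalization 51 of 53 members lay below 0 with shRNA 162, and 34 passed, the 31 among them. The main fit did not pair clones by replicate number. Clone 1 minus clone 2 correlated across rows at -0.05 between control and shRNA 162 and at -0.03 between the hairpins. Between control and shRNA 159 it correlated at 0.26. Whether the numbers mark a shared handling of clones was not tested. The replicate block left 31 and 32 calls in the comparisons with shRNA 162. Background could not be judged for dim members, since no detection call entered.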
